A study of Mus musculus with 8 samples.

Results

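The genes described here are Myc, its dimerization partners and antagonists, and genes of ribosome biogenesis and polyamine synthesis, 40 in all by name. Of these, 37 had a probe set named for that gene alone, among 17097 genes named on the array, and for a gene with several probe sets the brightest on average over the 8 arrays was taken. Max, Mybbp1a and Gnl3 had no such probe set in the annotation used here and were not analysed here. Expression was compared between regulatory T cells of wild-type mice (WT, 4 arrays) and of CD4(cre)Raptor(fl/fl) mice (RaptorKO, 4 arrays), both on the C57Bl/6J background. In the latter a Cre recombinase under Cd4 control removes the floxed Rptor gene. That gene encodes Raptor, the scaffold of the growth-controlling kinase complex mTORC1. The Cd4 promoter is active from the thymus onwards, so conventional CD4 and CD8 T cells of these mice lose the gene too. The cells were CD4+CD25+ cells sorted from spleen and lymph nodes and received no treatment. The ages of the mice and whether WT mice carried Cre are not given in the sources used here.

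Myc is a transcription factor that binds DNA as a dimer with Max, usually at the hexamer CACGTG, the E-box. Mxd1, Mxd4, Mxi1 and Mnt also pair with Max and repress at the same element, so that they oppose Myc. Among the best known Myc targets are genes for making ribosomes: RNA polymerase I, which transcribes ribosomal RNA in the nucleolus, the small nucleolar ribonucleoproteins (snoRNPs) that modify it, and factors that cut and assemble it into the small and large subunits. In T cells, both Myc and mTORC1 are known for driving this program when resting cells are activated.

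The E-box was searched in RefSeq promoter windows (build GRCm38.p6, from 250 bases before to 50 after the annotated start, either strand, since the hexamer is its own reverse complement). Of the 40 genes, 33 had such a window, and 10 of these 33 (30.3%) held at least 1 E-box, against 8.09% of the 27025 genes in the table. The 10 were Mxd4, Mnt, Max, Rrn3, Nop2, Pes1, Nle1, Utp20, Wdr43 and Mybbp1a. A match describes the letters in the window and does not show binding. The windows of Mxd4 and Mnt are shown because these were the members whose transcripts passed the test. That of Rrn3, the initiation factor that recruits RNA polymerase I, is shown as the member with 2 E-boxes, although its transcript did not pass. Capitals mark the E-box.
Mxd4, chr5:34187661-34187960, minus strand: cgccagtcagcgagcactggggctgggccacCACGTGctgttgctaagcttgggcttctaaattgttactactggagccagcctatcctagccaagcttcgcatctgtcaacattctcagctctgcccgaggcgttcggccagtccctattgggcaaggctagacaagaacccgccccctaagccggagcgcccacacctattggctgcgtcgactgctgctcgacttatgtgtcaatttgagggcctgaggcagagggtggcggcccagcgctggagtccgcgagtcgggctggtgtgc
Mnt, chr11:74830674-74830973, plus strand: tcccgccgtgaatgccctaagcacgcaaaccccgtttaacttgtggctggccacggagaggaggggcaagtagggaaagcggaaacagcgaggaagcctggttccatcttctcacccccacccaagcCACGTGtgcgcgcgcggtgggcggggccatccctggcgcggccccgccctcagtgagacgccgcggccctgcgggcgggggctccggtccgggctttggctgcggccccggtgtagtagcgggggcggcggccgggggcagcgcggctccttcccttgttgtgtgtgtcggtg
Rrn3, chr16:13780449-13780748, plus strand: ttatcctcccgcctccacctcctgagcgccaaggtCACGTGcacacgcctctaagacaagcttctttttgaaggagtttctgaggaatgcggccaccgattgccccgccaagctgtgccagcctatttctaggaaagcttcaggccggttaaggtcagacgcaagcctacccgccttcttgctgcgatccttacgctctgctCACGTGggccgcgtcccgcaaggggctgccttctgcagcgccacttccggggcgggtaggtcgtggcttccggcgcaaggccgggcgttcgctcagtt
Counted from the annotated start, the hexamer begins at base -219 in Mxd4, at -123 in Mnt and at -215 and -48 in Rrn3. Among the 30 members with both a window and array values, the median difference between genotypes was 0.13 for the 8 with an E-box (from -0.95 to 0.43) and -0.0089 for the 22 without (from -0.15 to 0.41). These are descriptions of the sets, with no test.

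All values are log2 intensities, and differences are RaptorKO minus WT with the standard error (SE) of a limma fit. Adjusted p-values are from this fit, Benjamini-Hochberg adjusted over the 11413 genes that exceeded the 40th percentile of the array on 4 or more of the 8. All 37 genes exceeded it on all 8 arrays. The regulatory T cell markers, 9 with Foxp3 and Il2ra among them, were above that percentile on all 8 arrays, and 1 of them, Nrp1, was called, with a difference of -1.44. An unadjusted limma p under 0.05 was seen for 4 of the 9 (13.0% of all genes). These were Nrp1, Ctla4 (-0.32) and Cd4 (-0.22), lower, and Ikzf2 (0.21), higher. The groups of these 4 did not overlap (8.82% of all genes). Rptor itself differed by -0.23 (SE 0.12, adjusted p = 0.491) and did not pass the test. The position of its probe set relative to the deleted part is not known here, so this does not check the labels. Replicates 1 and 2 of both genotypes had Xist at 10.88 or more and the Y-linked gene Kdm5d at 4.39 or less, whereas replicates 3 and 4 had Xist at 5.62 or less and Kdm5d at 8.22 or more. The 2 sets are therefore also given separately. RaptorKO 2 stood apart, with the highest value of all 8 arrays for 24.7% of all genes, and the lowest values were most often on RaptorKO 3 (18.5%) and WT 2 (16.5%).

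Within the Myc network, the repressor gene Mxd4 fell by 0.95 and the repressor gene Mnt rose by 0.43, while Myc, Mxd1 and Mxi1 did not pass the test. None of the 30 measured genes of ribosome biogenesis, and neither polyamine enzyme, passed it. In total 2 of 37 members were called at adjusted p under 0.05, 1 higher and 1 lower, where 1.96% of all genes tested were called (0.824% higher, 1.14% lower). The groups did not overlap for 3 of 37, where 8.82% of all genes did not, and 4 of 37 had an unadjusted p under 0.05, where 13.0% of all genes did. The difference was above 0 for 21 of 37, where 47.6% of all genes were above 0. Both the count of members whose groups did not overlap and the count at an unadjusted p under 0.05 were thus near or under the share over all genes, and the member that stood out by size was Mxd4.

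Mxd4 encodes a Max partner of the Mad family, which is known from cells that leave the cycle and differentiate. Its values were 10.08, 10.13, 10.05 and 10.02 in WT 1 to WT 4 and 9.22, 9.46, 8.89 and 8.94 in RaptorKO 1 to RaptorKO 4. All 4 RaptorKO arrays lay below all 4 WT arrays. The means were 10.07 ± 0.047 in WT and 9.13 ± 0.26 in RaptorKO (SD, n = 4 each). The difference was -0.95 (SE 0.13, 95% confidence interval -1.23 to -0.67, limma adjusted p = 0.00303), or 1.93-fold lower, and it ranked 37 by p-value among 11413 genes. Of the 3 other probe sets of the gene, those tested read -0.90 (adjusted p = 0.0108) and -0.70 (adjusted p = 0.0903) in a limma fit over all probe sets, and in both the groups did not overlap. The last was too dim to be tested, with means of 4.44 in WT and 4.07 in RaptorKO. Mxd4 was called without each of the 8 arrays in turn, with limma adjusted p from 0.00109 to 0.0145. It differed by -0.77 within replicates 1 and 2 (adjusted p = 0.154, with 9 of all 11413 genes called there) and by -1.12 within replicates 3 and 4 (adjusted p = 0.0195), and the interaction of genotype with set had an adjusted p of 0.481 in limma.

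Of the markers of other cells, only Ccr9 passed the test, as given below. Tested B cell (4), NK cell (1), dendritic cell (1) and granulocyte (2) markers had none called and none at an unadjusted limma p under 0.05. The CD8 T cell markers Cd8a and Cd8b1 were the whole of their list, and both were lower on average in RaptorKO without passing the test (-1.03 and -0.77, limma adjusted p = 0.341 and 0.103, both under 0.05 unadjusted). Their mean level ranged from 6.32 to 8.07 across the WT arrays, and from 6.08 to 7.03 across the RaptorKO arrays. The lowest WT value was that of WT 1, 6.32. Of 13 tested macrophage and monocyte markers 11 had a positive difference, where 47.6% of all genes did, and 0 were called at an adjusted p under 0.05. An unadjusted p under 0.05 in limma was seen for 5, all higher in RaptorKO, where 5.55% of all genes were. The 11 were above 0 in both replicate sets, where 23.4% of all genes were. The mean level of the 16 listed ranged from 5.35 to 6.11 across the WT arrays, and from 5.86 to 6.45 across the RaptorKO arrays, and Adgre1 and Itgam were under the filter on every array. Of 14 tested genes of dividing cells 13 had a positive difference with a median of 0.065 and 0 were called, with 1 at an unadjusted p under 0.05. Within replicates 1 and 2 all 14 were above 0 (53.6% of all genes), with a median of 0.24. Within replicates 3 and 4 only 6 were (43.3% of all genes), with a median of -0.041. Of 5 tested genes of conventional CD4 T cells, 1 was called, the chemokine receptor gene Ccr9, with a difference of 0.74 (limma adjusted p = 0.0115). The other 4 had negative differences, among them Cd40lg at -0.32 and Igfbp4 at -0.33, both under 0.05 unadjusted (limma adjusted p = 0.223 and 0.241), and the groups did not overlap for Cd40lg. The median of the 5 was -0.065, and their mean level ranged from 8.36 to 8.44 across the WT arrays, and from 8.34 to 8.50 across the RaptorKO arrays. Of 3 tested erythroid and platelet genes 0 were called, with the haemoglobin gene Hba-a1 at a difference of 1.10 (limma adjusted p = 0.159, under 0.05 unadjusted). The mean level of the 4 measured ranged from 5.02 to 5.53 across the WT arrays, and from 5.45 to 5.69 across the RaptorKO arrays. The part of these cells in the member values was not tested. In such bulk samples fewer cells of a type and less RNA per cell cannot be told apart.

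Mnt encodes the Max partner that is present in most cells and counters Myc in resting and dividing cells alike. Its values were 8.19, 8.15, 8.17 and 8.24 in WT and 8.64, 8.78, 8.52 and 8.52 in RaptorKO, in replicate order. Every RaptorKO array lay above every WT array. The means were 8.18 ± 0.039 and 8.62 ± 0.12 (SD, n = 4 each), a difference of 0.43 (SE 0.097, 95% confidence interval 0.22 to 0.64, limma adjusted p = 0.0468), or 1.35-fold higher. The call was lost without any 1 of the 8 arrays, with limma adjusted p from 0.0655 to 0.141 and differences from 0.38 to 0.46. A dimmer probe set of Mnt read 0.15 (limma over all probe sets, adjusted p = 0.624) with overlapping groups, and the mean of both probe sets gave 0.29 (adjusted p = 0.102). The 2 called members are both repressors that share Max, and they moved in opposite directions.

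Myc itself was measured by a single probe set. Its values were 10.16, 10.25, 10.24 and 10.19 in WT and 10.64, 10.82, 10.48 and 10.38 in RaptorKO, in replicate order. The RaptorKO arrays were all above the WT arrays, and replicates 1 and 2 were the higher pair in RaptorKO. The means were 10.21 ± 0.041 in WT and 10.58 ± 0.19 in RaptorKO (SD, n = 4 each). The difference, 0.37 (SE 0.11, 95% confidence interval 0.13 to 0.61), had an unadjusted p of 0.00627 and a limma adjusted p = 0.138, so it did not pass. Replicates 1 and 2 alone gave 0.52, and replicates 3 and 4 alone gave 0.21, with a limma interaction that did not pass (adjusted p = 0.521). With an intensity trend in the variance model Myc passed (limma adjusted p = 0.027).

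Mxd1, a Max partner induced in differentiating cells, read 8.23, 8.12, 7.78 and 7.81 in WT and 8.56, 8.93, 8.03 and 8.05 in RaptorKO, in replicate order. In both genotypes replicates 1 and 2 were above replicates 3 and 4, and over all 8 arrays the groups overlapped. Within each of these sets, both RaptorKO arrays were above both WT arrays. The difference was 0.41 (SE 0.19, 95% confidence interval -0.017 to 0.83, limma adjusted p = 0.404), and both other probe sets of the gene had positive differences as well, 0.33 and 0.20. With the replicate set as a term in the fit, the SE was 0.12 and the limma adjusted p = 0.113, so Mxd1 did not pass there either. Mxi1, the fourth measured Max-binding repressor, read 8.09, 8.04, 7.86 and 7.78 in WT and 7.89, 8.06, 7.98 and 8.09 in RaptorKO. Its groups overlapped, its difference was 0.062 (SE 0.11, limma adjusted p = 0.883), and its other probe set read -0.16.

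**Figure D1:**
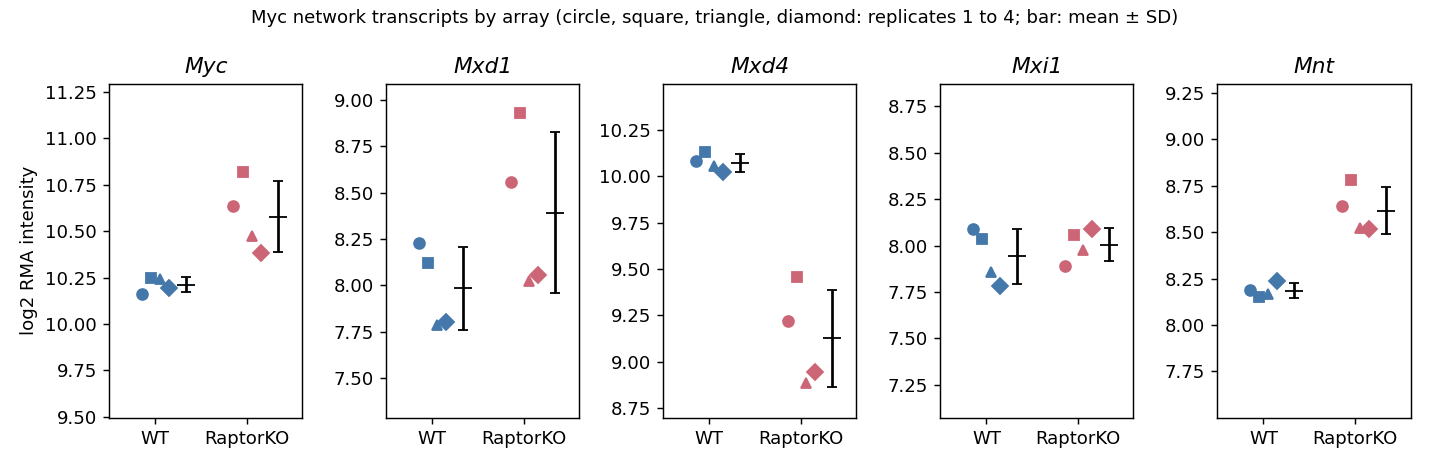
Log2 intensity (vertical axis, each panel spanning the same range of 1.8) of the 5 measured Myc network genes on the 8 arrays, WT in blue and RaptorKO in red, with a symbol for each replicate number and bars for mean ± SD (n = 4). The RaptorKO points of Mxd4 all lie below the WT points, those of Mnt and Myc all lie above, and those of Mxd1 and Mxi1 overlap with WT.

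The snoRNP proteins and snoRNA chaperones, 7 genes, had no called member and no member whose groups did not overlap. The difference was above 0 for 6 of 7, with a median of 0.15. Gar1, a core protein of the pseudouridine-forming H/ACA particles, read 9.95, 9.88, 9.45 and 9.77 in WT and 10.01, 10.22, 10.05 and 9.86 in RaptorKO, in replicate order. WT 3 was the lowest array and RaptorKO 4 lay within the WT range. The difference was 0.27 (SE 0.13, limma adjusted p = 0.394). Nhp2, another H/ACA protein, read 8.72, 8.51, 8.64 and 8.54 in WT and 8.95, 9.001, 8.70 and 8.69 in RaptorKO. Its RaptorKO replicates 1 and 2 were above all WT arrays and replicates 3 and 4 were not, and the difference was 0.23 (SE 0.11, limma adjusted p = 0.397). Nop56, a core protein of the methylating C/D particles, read 9.84, 9.52, 9.72 and 9.84 in WT and 9.77, 9.91, 10.16 and 9.90 in RaptorKO. Only RaptorKO 1 overlapped with WT, and the difference was 0.20 (SE 0.12, limma adjusted p = 0.522). The C/D proteins Nop58 and Fbl, the latter the methyltransferase, differed by 0.12 and 0.091, the chaperone Nolc1 by 0.15 and the pseudouridine synthase Dkc1 by -0.095. The dimmer probe sets of Nolc1 read -0.13 and 0.053, and that of Dkc1 read 0.036.

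None of the 3 measured nucleolar proteins with several functions passed the test. Npm1, the abundant histone and ribosome chaperone nucleophosmin, read 12.45, 12.46, 12.48 and 12.49 in WT and 12.52, 12.47, 12.51 and 12.47 in RaptorKO. The whole spread of the 8 arrays was small, and the difference was 0.022 (SE 0.086, 95% confidence interval -0.17 to 0.21, limma adjusted p = 0.954). Its dimmer probe set had groups that did not overlap, with means of 10.58 in WT and 10.87 in RaptorKO, but did not pass (limma over all probe sets, adjusted p = 0.203). Ncl, nucleolin, read 7.48, 7.64, 7.75 and 7.54 in WT and 7.63, 7.53, 8.09 and 7.61 in RaptorKO, with RaptorKO 3 alone above the WT arrays, and differed by 0.11 (SE 0.13). Ddx21, a nucleolar RNA helicase, read 9.15, 8.996, 8.86 and 8.97 in WT and 9.01, 9.09, 8.90 and 8.76 in RaptorKO and differed by -0.057 (SE 0.11).

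Genes for processing of the small subunit, 6 in all, were above 0 in 3 and below 0 in 3, with a median of 0.0097. Rrp9, a protein of the U3 particle that guides the early cuts, read 6.66, 6.64, 6.69 and 6.47 in WT and 6.47, 6.64, 6.47 and 6.27 in RaptorKO. RaptorKO 4 was the lowest array, and the difference was -0.15 (SE 0.11, limma adjusted p = 0.638). Wdr43 read 8.82, 8.59, 8.81 and 8.75 in WT and 8.65, 9.06, 8.98 and 8.76 in RaptorKO, with a difference of 0.12 (SE 0.12). Noc4l read 8.05, 7.79, 7.86 and 8.13 in WT and 7.73, 8.22, 7.85 and 7.55 in RaptorKO, with a difference of -0.12 (SE 0.14). In both, RaptorKO arrays lay on both sides of the WT mean. The remaining factors of this group, Utp20, Rrp12 and Nop14, differed by 0.15, 0.035 and -0.016.

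Genes for processing of the large subunit, 10 measured, were above 0 in 5 and below 0 in 5, with a median of 0.0045. Bop1, which with Pes1 and Wdr12 forms the PeBoW complex that matures large subunit RNA, read 7.74, 7.46, 7.71 and 7.73 in WT and 7.32, 7.53, 7.46 and 7.46 in RaptorKO. WT 2 lay within the RaptorKO range and the other WT arrays above it, and the difference was -0.22 (SE 0.10, limma adjusted p = 0.397). Pes1 read 7.93, 7.42, 7.39 and 7.68 in WT and 7.67, 8.36, 8.02 and 7.68 in RaptorKO. Its difference had the opposite sign, 0.33 (SE 0.17, limma adjusted p = 0.462). A dimmer Pes1 probe set had groups that did not overlap, with means of 4.99 and 5.75, and did not pass (limma over all probe sets, adjusted p = 0.225). Wdr12 differed by -0.056, with RaptorKO arrays from 6.13 to 7.29 around WT arrays from 6.61 to 7.01. The 3 subunits of this complex thus showed no common direction.

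Nle1, an assembly factor that binds the maturing large subunit, read 6.04, 5.89, 6.60 and 6.27 in WT and 6.73, 6.60, 6.06 and 6.23 in RaptorKO, in replicate order. RaptorKO was above WT in replicates 1 and 2, by 0.70, and below WT in replicates 3 and 4, by 0.29. The interaction of genotype with set had an unadjusted p of 0.00112 and did not pass over all genes (limma adjusted p = 0.334), where 11.4% of all genes had an unadjusted interaction p under 0.05. Over all 4 replicates Nle1 differed by 0.20 (SE 0.18, limma adjusted p = 0.732). The remaining factors were the RNA methyltransferase Nop2 (0.072), Rrs1 (0.10), Wdr74 (0.028), Nip7 (-0.019), Ebna1bp2 (-0.028) and Nop16 (-0.028). The dimmer probe sets of Rrs1 and Nop16 had the opposite sign, -0.26 and 0.025.

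Of the RNA polymerase I genes, 1 of 4 was above 0 and the median was -0.0054. The largest subunit gene Polr1a read 8.13, 7.96, 7.97 and 7.75 in WT and 7.80, 8.07, 7.74 and 7.75 in RaptorKO and differed by -0.12 (SE 0.12, limma adjusted p = 0.777). The second largest subunit gene Polr1b read 5.63, 5.94, 5.58 and 5.74 in WT and 6.04, 5.81, 5.62 and 5.41 in RaptorKO and differed by -0.0022 (SE 0.14). In both genes the groups overlapped over most of their range, and both other probe sets of Polr1a had positive differences, 0.14 and 0.047. Polr1c, a subunit shared with RNA polymerase III, read 8.44, 8.19, 8.28 and 8.50 in WT and 8.77, 8.70, 8.47 and 8.51 in RaptorKO. RaptorKO 3 alone lay within the WT range. Its difference was 0.26 (SE 0.11, 95% confidence interval 0.014 to 0.50, limma adjusted p = 0.346). By the brightest probe sets, its unadjusted limma p of 0.0397 was the smallest of the 30 ribosome biogenesis genes. The dimmer probe sets of Npm1 and Pes1 had smaller unadjusted p-values, 0.00853 and 0.0108 (limma over all probe sets). Rrn3 read 6.70, 6.57, 6.60 and 6.53 in WT and 6.77, 6.75, 6.36 and 6.47 in RaptorKO. RaptorKO 1 and 2 were the highest arrays and RaptorKO 3 and 4 the lowest, and the difference was -0.0087 (SE 0.12).

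Polyamine synthesis was represented by Odc1, the ornithine decarboxylase that limits the pathway, and Srm, the spermidine synthase, both known Myc targets. Odc1 read 6.89, 7.11, 7.61 and 7.27 in WT and 6.89, 6.46, 7.69 and 7.33 in RaptorKO and differed by -0.13 (SE 0.23, limma adjusted p = 0.898). In both genotypes replicate 3 was the highest array. Srm read 7.56, 7.44, 7.65 and 7.60 in WT and 7.60, 7.51, 7.43 and 7.10 in RaptorKO and differed by -0.15 (SE 0.12, limma adjusted p = 0.695). RaptorKO 4 was the lowest Srm array.

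**Figure D2:**
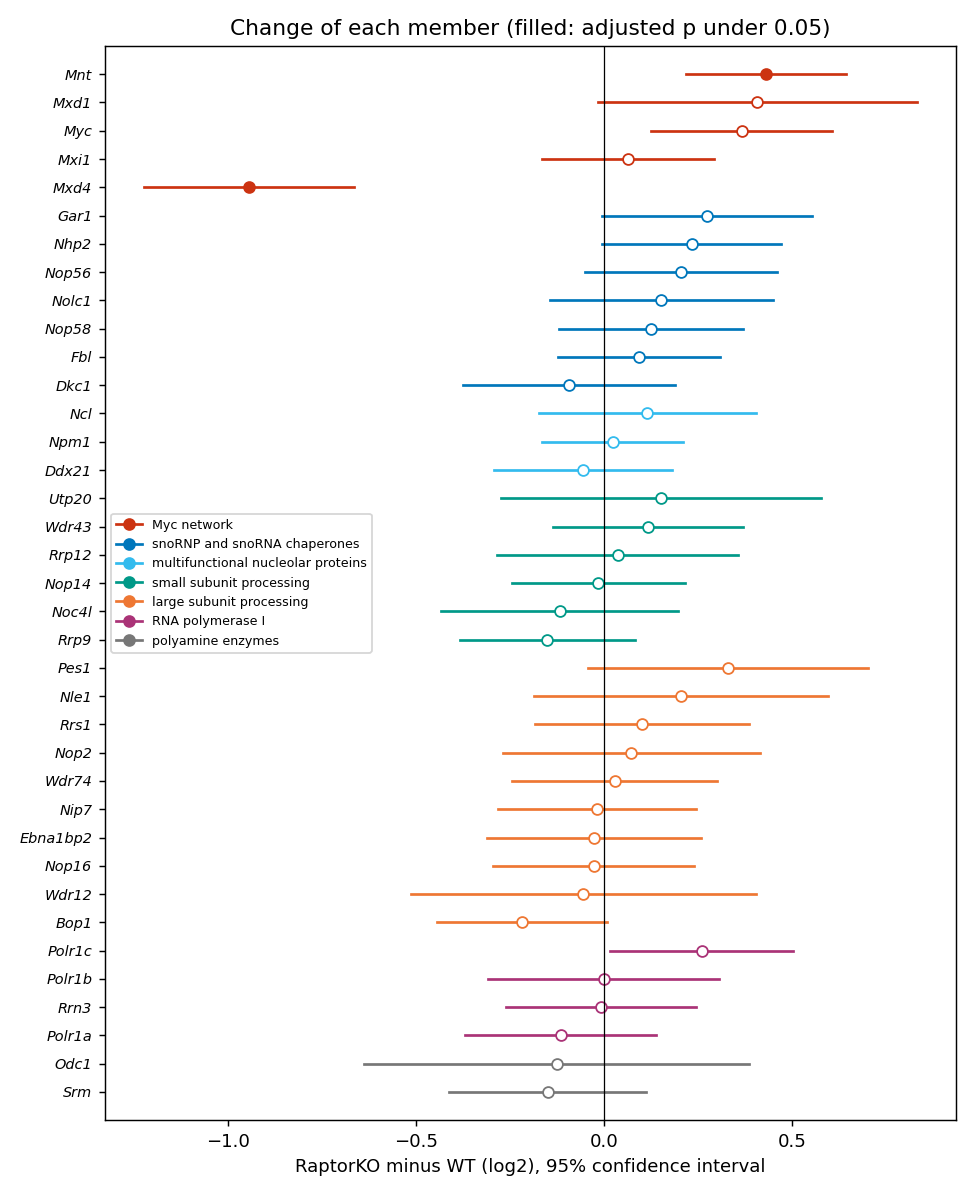
Difference between RaptorKO and WT (log2, horizontal axis) with its 95% confidence interval for the 37 measured genes, coloured by role. Filled points, Mxd4 at -0.95 and Mnt at 0.43, have a limma adjusted p under 0.05, and the intervals of the 30 ribosome biogenesis genes run from -0.52 at the lowest to 0.70 at the highest.

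The intervals show what sizes the data leave for the ribosome biogenesis genes. Over the 30 genes the lowest bound was -0.52 (Wdr12), a 1.43-fold lower level, and the highest was 0.70 (Pes1), a 1.63-fold higher level. These bounds are for the brightest probe set of each gene. The dimmer probe set of Pes1 read 0.76, above that bound, and the mean of both gave a difference of 0.55 (limma adjusted p = 0.0573), against 0.33 for the brighter one. For 24 of 30 the whole interval lay within 0.5 of 0 on the log2 scale, as it did for 74.6% of all genes tested. A p above the threshold does not show equal expression, and differences inside an interval are not settled by these arrays. The median difference was 0.37 for the Myc network (5 genes), 0.053 for the nucleolar processing genes (26 genes, 16 above 0) and -0.0054 for RNA polymerase I (4 genes), against -0.0092 for all genes tested. No test of these medians was made.

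Arrays of the same genotype differed in how many ribosome biogenesis genes lay above their own mean over the 8 arrays. In WT 1 to WT 4 these were 23, 7, 14 and 14 of 30, where 56.0%, 45.9%, 55.2% and 53.7% of all genes were. In RaptorKO 1 to RaptorKO 4 they were 16, 26, 11 and 3 of 30, where 49.3%, 59.0%, 39.6% and 48.2% of all genes were. RaptorKO 2 held the highest value for 10 of the 30 genes (24.7% of all genes), RaptorKO 1 for 9 (11.3%) and WT 1 for 6 (10.7%). RaptorKO 4 held the lowest for 10 (15.02% of all genes) and WT 2 for 11 (16.5%). The median deviation from the gene mean ran from -0.084 (RaptorKO 4) to 0.16 (RaptorKO 2) within RaptorKO and from -0.11 (WT 2) to 0.067 (WT 1) within WT. The median difference between genotypes was 0.031 over the 30 genes. It compares means of 4 arrays, so it is not the same measure as the spread of single arrays. For RaptorKO 2 the median deviation of all genes was 0.050.

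**Figure D3:**
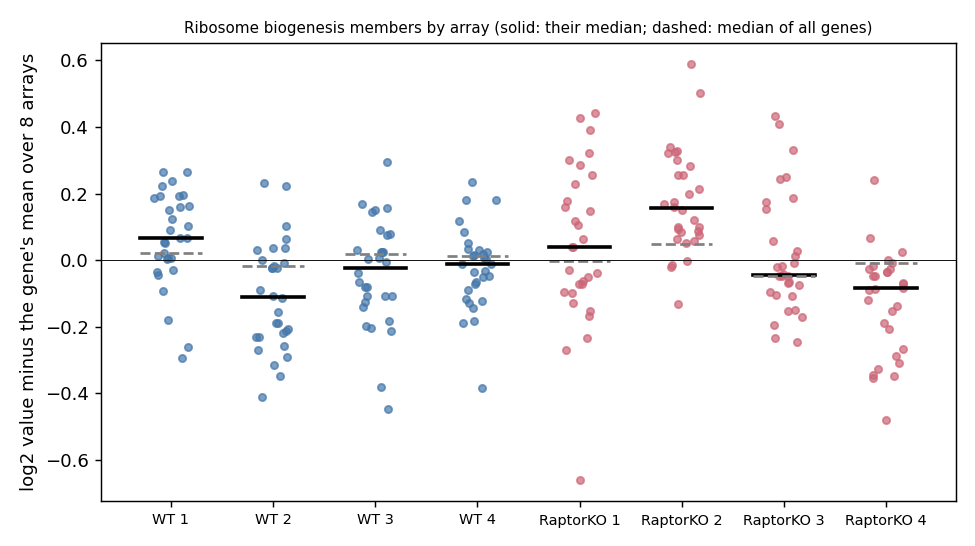
Each point is 1 of the 30 measured ribosome biogenesis genes on 1 array, as its log2 value minus that gene's mean over 8 arrays (vertical axis), WT in blue and RaptorKO in red. Solid lines are the medians of these genes, from -0.11 in WT 2 to 0.16 in RaptorKO 2, and dashed lines are the medians of all genes tested.

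The replicate sets were also compared gene by gene. Within replicates 1 and 2, 23 of the 30 ribosome biogenesis genes were above 0, where 53.6% of all genes were, with a median of 0.13. Within replicates 3 and 4, 12 of 30 were above 0, where 43.3% of all genes were, with a median of -0.017. The medians of all genes were 0.021 and -0.041 in these sets. Of the 30 genes 10 were above 0 in both sets and 5 below 0 in both, where 2673 and 3033 of all 11413 genes were. Counting all 37 members, 13 were above 0 in both sets (23.4% of all genes were) and 6 were below 0 in both (3033 of all 11413 genes were). Of the Myc network, Myc, Mxd1 and Mnt were above 0 in both sets and Mxd4 was below 0 in both. The interaction of genotype and set passed for 0 of 37 members in limma, and 1 of the 30 ribosome biogenesis genes, Nle1, had an unadjusted interaction p under 0.05.

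**Figure D4:**
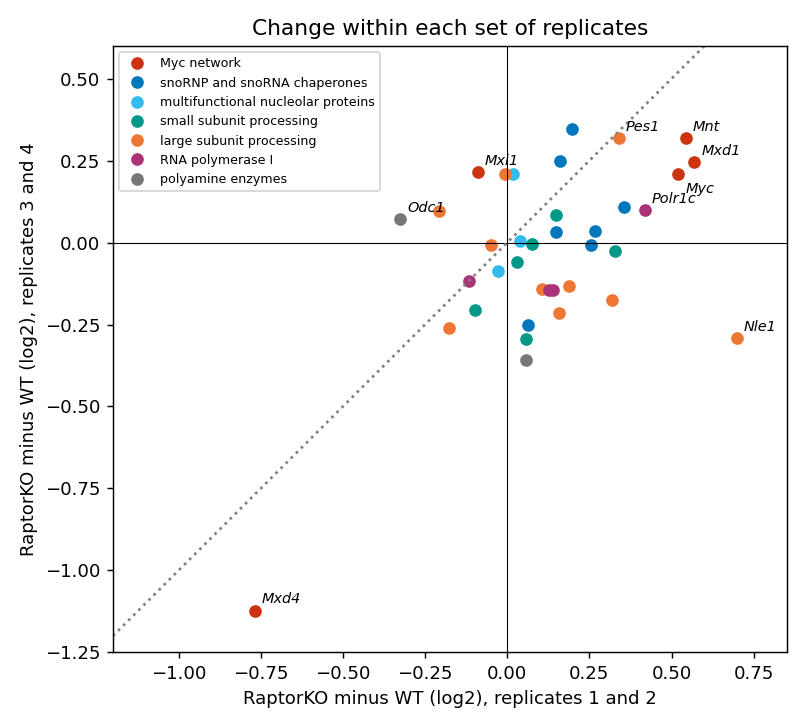
Difference between RaptorKO and WT (log2) within replicates 1 and 2 (horizontal axis) against that within replicates 3 and 4 (vertical axis) for the 37 measured genes, coloured by role, with a dotted line where both are equal. Mxd4 lies at -0.77 and -1.12, Mnt, Mxd1 and Myc lie above 0 on both axes, and Nle1 lies at 0.70 and -0.29.

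The rest of the pathway was followed in 182 further genes of the Myc network, of snoRNP assembly, subunit processing, RNA polymerase I and polyamine use, and among known Myc targets. Of these, 160 had a probe set and 153 were tested. None passed over all genes in limma, while 11 had an unadjusted p under 0.05, 10 higher and 1 lower, where 5.55% of all genes were higher and 7.49% lower at that level. The groups did not overlap for 12 of 153, 10 higher and 2 lower, where 3.73% and 5.09% of all genes did not. The difference was above 0 for 86 of 153 and the median was 0.029. Without replicate 2 of both genotypes that median was -0.052, and it was -0.0078 without WT 2 alone and -0.016 without RaptorKO 2 alone, so its sign rested on those arrays.

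These further genes are given by role. In the wider Myc network (13 tested, 6 above 0, median -0.0069) the smallest p belonged to Skp2, a ubiquitin ligase subunit, which read 5.70 ± 0.084 in WT and 6.27 ± 0.43 in RaptorKO (SD, n = 4 each), a difference of 0.57 with groups that did not overlap (limma adjusted p = 0.161), and to the Max-binding protein gene Mga (0.21). In large subunit processing (43 tested, 26 above 0, median 0.041) they were Nsa2, with 10.79 ± 0.055 and 11.12 ± 0.10 (limma adjusted p = 0.121), and Ppan, which differed by 0.29. The groups of both did not overlap. In small subunit processing (36 tested, 17 above 0, median -0.0049) Pno1 differed by -0.20 and Aatf by 0.19. In snoRNP assembly (5 tested, 2 above 0, median -0.059) Nop10 differed by 0.081 and Rpap3 by -0.10. Among further RNA polymerase I genes (15 tested, 7 above 0, median -0.035) Taf1d differed by 0.25 and Polr1d, a subunit shared with RNA polymerase III like Polr1c, by -0.19.

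Among other known Myc targets, 21 of 33 were above 0, with a median of 0.082. Tfap4, a transcription factor gene, read 5.11 ± 0.12 in WT and 5.55 ± 0.13 in RaptorKO (SD, n = 4 each), a difference of 0.43 (SE 0.11, limma adjusted p = 0.0665). Ldha, the lactate dehydrogenase subunit gene that is also known as a HIF-1 target, read 10.31 ± 0.10 and 9.93 ± 0.052, a difference of -0.38 (SE 0.095, limma adjusted p = 0.0689). The groups of neither gene overlapped, and the 2 genes with the smallest p in this list had opposite signs. In polyamine and hypusine metabolism 7 of 8 were above 0, with a median of 0.088. Dhps and Dohh, the enzymes that form hypusine on the translation factor eIF5A, differed by 0.35 and 0.19 (limma adjusted p = 0.415 and 0.698).

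**Figure D5:**
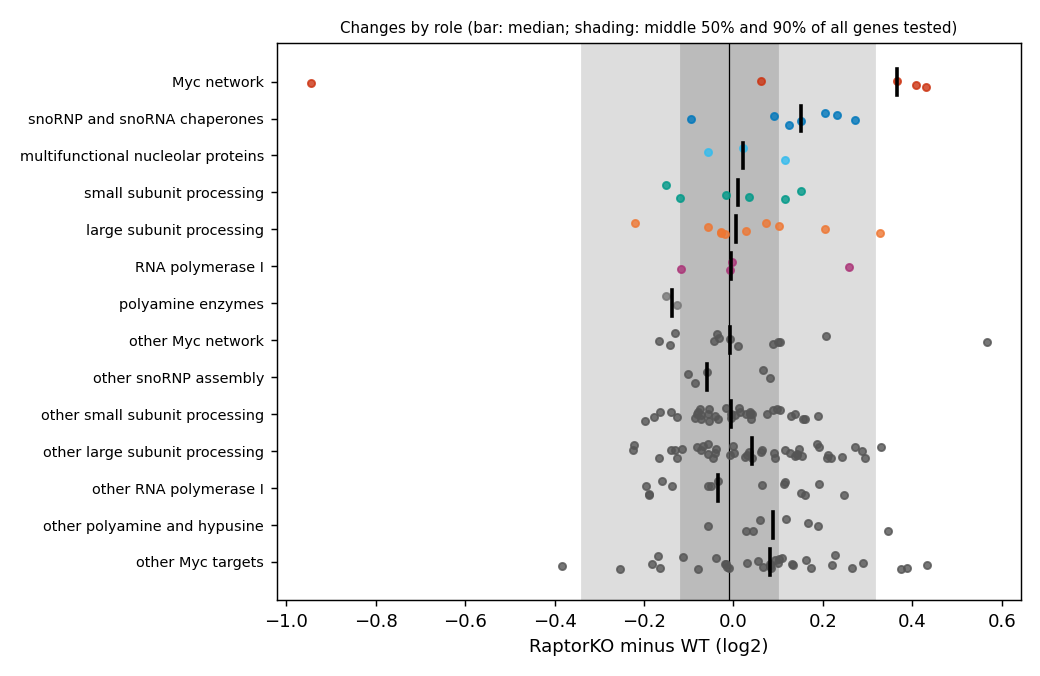
Difference between RaptorKO and WT (log2, horizontal axis) of each tested gene by role, with the members in the 7 upper rows and the further pathway genes in the 7 lower rows, and a bar at each median. Shading marks the middle 50% and 90% of all 11413 genes, and the thin line their median. The Myc network reaches from -0.95 to 0.43, and the medians of the ribosome biogenesis roles lie between -0.059 (other snoRNP assembly) and 0.15 (snoRNP and snoRNA chaperones).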

How the data were processed

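RNA from 8 samples was hybridised to 8 single-channel arrays, 1 each. The deposited values are log2 intensities per probe set, made by the authors with RMA, as the name stands per the submitters' processing notes. No RMA version is stated there. RMA as usually run normalizes between arrays, so differences are relative to the other transcripts. Array medians ran from 5.21 to 5.29, and the values were used as they stand. Precision is limited by the number of arrays.

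Probe sets with 1 gene (28898 of 45141) were named from the platform's annotation, updated by Entrez identifier to RefSeq symbols (GRCm38.p6), of which 28689 matched. Tests were limited to probe sets above the 40th percentile of the array on 4 or more of the 8. RaptorKO and WT were compared with limma 3.58.1 in R 4.3.3 (lmFit, eBayes, no covariates, 4 against 4). The script was tested on simulated data. The members, roles, gene lists and alternatives were chosen with earlier results of these data known. All members are named. Array values are given for the Myc network, RNA polymerase I, the polyamine enzymes and the 3 smallest p-values of each other role, and further lists give their 2 smallest p-values. The labels do not say whether replicates came from separate animals; the p-values then reflect only sample-to-sample spread, part of which may be technical. Figures used matplotlib 3.10.9 in Python 3.11.15.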

Additional observations from a re-analysis of the deposited data

Results flagged for a closer look

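Groups of 4 arrays were screened for a single array far from the others, 102 groups over the members and the further genes named; chance flags about 1 in 20 such groups, and 3 were flagged. Bop1 in WT 2 read 7.46 against 7.71 to 7.74 on the other WT arrays. Polr1a in RaptorKO 2 read 8.07 against 7.74 to 7.80 on the other RaptorKO arrays. Rpap3, a chaperone subunit gene of the snoRNP assembly list, read 5.63 in WT 2 against 6.17 to 6.25. The flags fell on WT 2, for Bop1 and Rpap3, and on RaptorKO 2, for Polr1a, and both arrays carry replicate number 2. No named gene passed the interaction of genotype and replicate set (lowest limma adjusted p = 0.334).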

How the results depend on the processing

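Of 22 alternatives, Mxd4 was called in 21 and had a negative difference in all (from -1.12 to -0.73); the exception was replicates 1 and 2 only (limma adjusted p = 0.154). Mnt was called in 7 of 22 (differences from 0.29 to 0.54), and Myc in 1, with an intensity trend. The other 34 members were called in none of the alternatives in which they were tested. A difference changed sign in 61 of 812 member and setting pairs, in none of them for a called value. Many of these pairs could not change sign. The replicate block, the replicate set term, both filter settings, the intensity trend and robust eBayes left the member differences as they were. The share of pairs is therefore no measure of how stable the directions were. Only 13 members kept their sign in all alternatives in which they were tested. The number of members called was 2, and 1 (Mxd4) with the replicate block, within replicates 3 and 4, with the mean of all probe sets, with no filter, with median centring, without replicate 2 of both genotypes (chosen after seeing the data) and without any 1 array (lowest and highest 1), and 0 within replicates 1 and 2, where 9 of 11413 genes were called. The members whose groups did not overlap numbered 3, where 8.82% of all genes did not overlap. They numbered 15 within replicates 1 and 2 (43.4% of all genes), 19 within replicates 3 and 4 (49.8%), 5 with the mean of probe sets (9.90%), 6 with quantile normalization (10.1%), 6 with 75th percentile centring (9.82%), 5 without replicate 2 of both genotypes (23.7%) and 3 to 5 without 1 array (11.05% to 14.8%). Of the further pathway genes 0 were called, and 2 with the mean of probe sets (Ldha, Tfap4), 1 with a 60th percentile filter (Ldha), 1 with quantile normalization (Cdk4), 1 with 75th percentile centring (Tfap4), 3 with an intensity trend (Hspe1, Ldha, Nsa2) and 1 with array weights (Ldha); the cause was not tested. Within replicates 1 and 2 the medians were 0.13 for all members, 0.52 for the Myc network and 0.11 for the further genes. Within replicates 3 and 4 they were -0.0065, 0.21 and -0.036, in the same order. Those of all members and of the further genes were thus above 0 in the first set only. Without replicate 2 of both genotypes the median of the further genes was -0.052. Leaving out 1 array gave medians of 0.032 to 0.10 for all members, 0.23 to 0.43 for the Myc network, 0.025 to 0.12 for nucleolar processing, -0.086 to 0.065 for RNA polymerase I and -0.016 to 0.059 for the further genes. Over all genes 224 were called, 101, 122, 125, 136 and 147 without WT 4, WT 3, WT 1, RaptorKO 1 and RaptorKO 3, 370 with an intensity trend, and 9 within replicates 1 and 2 and 85 within replicates 3 and 4. With the replicate block, Mnt had a limma adjusted p = 0.131 and 175 genes were called; the numbers were not taken as pairs, since over all genes the deviations from the group mean of same-numbered WT and RaptorKO samples correlated at 0.16, -0.15, 0.11 and 0.026 for numbers 1 to 4, and 2 of 8 samples correlated best with their own number. Dim signal limited 1 of the 4 Mxd4 probe sets. Among the 24 other tested probe sets of members, 7 had a difference of the opposite sign to the brightest one. Of the 19 members with 2 or more tested probe sets, 13 had the same sign in all of them.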
